A study of Mus musculus with 35 samples.

Results

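Expression of 10 Krueppel-like factor genes (Klf2, Klf4, Klf6, Klf7, Klf9, Klf10, Klf11, Klf13, Klf15 and Klf16) was followed in the mouse hypothalamus with and without food. The members were taken by exact gene name from the count tables of 35 RNA-seq libraries, which listed 49568 gene names, and all 10 were found and passed the filter on low counts. The mice were males of strain B6/J sampled at Zeitgeber time 16 (hours after lights-on), with 1 library per numbered animal. They formed 5 groups: control genotype fed ad libitum (n = 10), control genotype fasted for 16 h (n = 10), Per2 ko fasted for 16 h (n = 5), PER2-S662D fed ad libitum (n = 5) and PER2-S662D fasted for 16 h (n = 5). PER2 is a repressor of the circadian clock, and S662D replaces a serine that can be phosphorylated with an aspartate. How either allele was made is not given in the sources used here, and no fed ko group was analysed.

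Krueppel-like factors are zinc-finger transcription factors that bind GC-rich and CACCC-type sequences near gene starts, as the Sp factors do. Some members activate and others repress: KLF9, KLF10, KLF11, KLF13 and KLF16 share a short repression domain that recruits the co-repressor SIN3. Klf9 and Klf15 are known as direct glucocorticoid receptor targets and as genes that follow the clock in several tissues, and KLF15 controls amino acid and glucose handling in fasted liver and muscle. Klf2 and Klf4 are best known from endothelium, where flow induces them, and Klf4 and Klf6 also from glia and injury responses.

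Total counts were 17959586 to 37027342 per library, mitochondrial genes took 6.24% to 9.08% of them, and 18063 genes were tested. The 10 defining hypothalamic genes that were checked summed to 523.1 to 754.1 CPM (counts scaled to the size of the library) per library, and 7 pituitary markers to 1.56 to 6.22 CPM. Choroid plexus markers exceeded 200 CPM in 8 libraries, spread over all 5 groups. Per2, counted over all its exons, was 30.3 ± 2.00 CPM (SD, n = 5) in the libraries labelled ko and 29.0 ± 2.45 CPM (n = 10) in fasted controls, so the count does not separate that label from the controls. It was 18.8 ± 1.98 CPM in fed S662D mice against 28.2 ± 1.87 CPM in fed controls. Library numbers in the file headers separate controls 1 to 5 from controls 6 to 10, and 6 of the 10 S662D libraries (fed and fasted mice 2, 3 and 4) carry an additional final digit. The ko and S662D libraries have number ranges of their own, so genotype and range cannot be told apart for them.

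The promoters of the 4 members that rose in both genotypes are shown first, so that sites for clock and GC-box factors can be looked for in the letters. RefSeq entries (GRCm38.p6) matched 8 of the 10 members, with Klf10 and Klf16 missing. Each sequence is read along the gene's own strand, 5′ to 3′, from 250 bases before the RefSeq start. Capitals mark the E-box CACGTG bound by CLOCK and BMAL1, the GC box GGGCGG and the CACCC box, on either strand.
Klf15, GRCm38.p6 chr6:90462326-90462578, plus strand: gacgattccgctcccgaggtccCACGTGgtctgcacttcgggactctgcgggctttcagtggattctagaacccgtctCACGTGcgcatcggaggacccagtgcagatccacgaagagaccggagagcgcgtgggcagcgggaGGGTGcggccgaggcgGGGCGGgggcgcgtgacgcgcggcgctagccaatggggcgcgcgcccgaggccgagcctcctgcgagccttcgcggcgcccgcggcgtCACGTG
Klf9, GRCm38.p6 chr19:23140976-23141225, plus strand: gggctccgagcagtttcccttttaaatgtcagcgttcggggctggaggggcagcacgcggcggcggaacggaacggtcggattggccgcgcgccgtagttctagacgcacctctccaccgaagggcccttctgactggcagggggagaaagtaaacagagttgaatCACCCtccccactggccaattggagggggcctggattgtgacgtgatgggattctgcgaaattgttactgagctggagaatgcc
Klf13, GRCm38.p6 chr7:63938916-63939165, minus strand: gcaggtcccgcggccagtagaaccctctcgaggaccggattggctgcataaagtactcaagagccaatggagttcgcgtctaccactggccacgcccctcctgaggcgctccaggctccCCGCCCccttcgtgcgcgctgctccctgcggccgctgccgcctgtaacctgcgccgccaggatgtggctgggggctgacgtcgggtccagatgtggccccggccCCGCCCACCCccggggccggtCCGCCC
Klf2, GRCm38.p6 chr8:72318812-72319032, plus strand: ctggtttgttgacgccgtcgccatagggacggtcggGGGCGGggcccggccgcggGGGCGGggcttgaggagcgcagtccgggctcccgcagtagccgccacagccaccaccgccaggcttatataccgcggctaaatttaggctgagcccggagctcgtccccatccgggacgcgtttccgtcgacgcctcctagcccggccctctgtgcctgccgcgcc
The Klf15 stretch holds 3 E-boxes, at 228, 172 and 3 bases before the start, where the last one reaches across the first base of the gene. An E-box was present in the 300-base windows (250 bases before to 50 after the start) of 4 of the 8 matched members, namely Klf4, Klf6, Klf11 and Klf15, and in 7.15% of 32851 mouse promoter windows of that length. A GC box was present in 7 of 8 (Klf9 has none) against 35.7% of all windows, and a CACCC box in 5 of 8 against 57.5%. The printed Klf2 stretch stops where its annotated first exon begins, short of the RefSeq start. It therefore leaves out the CACCC box of Klf2, 19 bases before that start. In Klf13 a GC box and a CACCC box share a single base. Neither the full glucocorticoid response element, GNACA and TGTNC with 3 bases between (0.475% of all windows), nor the shorter site TGTTCT (19.0%) occurred in the 8 windows, which says only that these letters are not there. The 8 windows were 58.3% to 77.7% G and C, against a median of 52.7%.

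In fed controls the 10 genes differed widely in level. Per kilobase of exon, Klf9 had the highest level, at 29.9 ± 1.99 CPM per kb (SD, n = 10), and its range did not overlap that of any other member. Klf15 (12.4 ± 0.939), Klf13 (11.4 ± 0.623) and Klf6 (10.1 ± 0.703) followed, and the ranges of neighbours in this order overlapped. Klf16 stood at 7.22 ± 0.464, Klf2 at 4.37 ± 0.547 and Klf7 at 2.64 ± 0.284 CPM per kb, with no overlap between these neighbours. Klf11 (1.76 ± 0.294), Klf4 (1.71 ± 0.340) and Klf10 (1.31 ± 0.165) overlapped each other. Counts per library were 1587 to 4291 for Klf9 but only 70 to 246 for Klf4 and 57 to 173 for Klf10, so these last values carry the largest counting error.

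Fasting raised 5 of the 10 genes in control mice and lowered none: Klf15, Klf9, Klf13, Klf2 and Klf4 (edgeR quasi-likelihood test, adjusted p below 0.05 over all genes). For comparison, 3.88% of all tested genes passed this test in either direction, and 2.2% were higher. The median log2 fold change was 0.192 over the 10 members and 0.002 over all genes. In S662D mice, Klf15, Klf9, Klf13 and Klf2 rose and none fell, against 2.64% of all genes called and 1.8% called higher. There the medians were 0.225 for the members and 0 for all genes. The members were chosen with earlier results of these data known, so these shares and medians do not test the family. The 4 other tested Krueppel-like factor genes had a median of -0.096 in controls and -0.161 in S662D mice, with none called. In tissue as a whole, fewer cells of a type and less RNA per cell cannot be told apart.

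Klf9 and Klf13 are close relatives that carry the SIN3-binding domain. Klf9 (chromosome 19, 23141226 to 23166911, plus strand, mm10) ranged from 84.2 to 108.3 CPM in fed controls, with a median of 98.0, and from 106.8 to 131.5 CPM in fasted controls, with a median of 124.2. A total of 9 of 10 fasted controls lay above the highest fed control. The rise was 24.7% (log2 0.32, SE 0.05, adjusted p = 0.000102). In fed S662D mice 1 to 5 it read 86.9, 100.8, 106.8, 104.1 and 87.2 CPM, and in fasted S662D mice 1 to 5 it read 102.3, 135.5, 153.1, 140.9 and 127.2 CPM. All fasted S662D mice except mouse 1 were above every fed one, and the rise was 35.5% (log2 0.44, SE 0.08, adjusted p = 0.000246).

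Klf13 (chromosome 7, 63886351 to 63938915, minus strand) was the only member whose fed and fasted control libraries did not overlap, which held for 0.515% of all genes. The fed controls lay between 79.6 and 94.9 CPM (median 85.05) and the fasted controls between 98.6 and 119.8 CPM (median 107.0). Klf13 rose by 25.6% in controls (log2 0.33, SE 0.06, adjusted p = 0.000669). The fed S662D values were 76.6, 92.3, 102.1, 104.2 and 81.4 CPM, and the fasted values 85.6, 128.4, 140.6, 146.6 and 119.3 CPM. Mouse 1 was again the low fasted value, inside the fed range, and the others stood above it. The rise was 35.6% (log2 0.44, SE 0.09, adjusted p = 0.00187), and among S662D mice 3.3% of all genes but no member had groups without overlap.

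Klf15 (chromosome 6, 90462576 to 90475238, plus strand), the factor tied to fasting metabolism, had the lowest adjusted p of the members in both genotypes. It ranged from 32.0 to 40.4 CPM (median 33.4) in fed controls and from 38.5 to 55.6 CPM (median 46.3) in fasted controls. All but 1 of the fasted controls exceeded the highest fed control. The rise was 37.6% (log2 0.46, SE 0.07, adjusted p = 2.1e-05). Fed S662D mice read 34.9, 29.9, 28.4, 29.7 and 27.7 CPM, and fasted S662D mice read 34.6, 59.5, 53.7, 55.0 and 48.5 CPM. Here fasted mouse 1 equalled the highest fed mouse to within 1 CPM, while the other 4 were well above. The rise was 66.5% (log2 0.74, SE 0.10, adjusted p = 4.22e-06).

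Klf2 and Klf4 are the members best known from endothelium, and which cells carried them here was not tested. Klf2 (chromosome 8, 72319033 to 72321656, plus strand) ranged from 6.77 to 9.39 CPM (median 8.125) in fed controls and from 8.18 to 13.7 CPM (median 11.6) in fasted controls, with 9 of 10 fasted libraries above all fed ones. It rose by 40.2% (log2 0.49, SE 0.11, adjusted p = 0.00576). Fed S662D values were 8.80, 9.55, 10.8, 9.35 and 6.15 CPM, and fasted values 9.62, 18.6, 15.5, 20.0 and 11.7 CPM. The fasted S662D mice spread more widely than any other group, and the rise was 67.2% (log2 0.74, SE 0.15, adjusted p = 0.00204). With only the 10 S662D libraries in the fit, the S662D values of Klf2 (0.74, adjusted p = 0.128) and Klf13 (0.44, adjusted p = 0.190) were no longer called, and Klf13 was also lost without the libraries rich in choroid plexus markers (0.40, adjusted p = 0.101).

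Klf4 (chromosome 4, 55527143 to 55532466, minus strand) ranged from 3.67 to 7.23 CPM (median 5.10) in fed controls and from 5.73 to 9.61 CPM (median 6.44) in fasted controls. Only 4 of 10 fasted libraries exceeded all fed ones, although all 10 lay above the fed median. The rise was 33.9% (log2 0.42, SE 0.12, adjusted p = 0.0299). The call was lost in 11 of 30 alternatives, among them no filter on low counts (0.42, adjusted p = 0.0659) and leaving out the libraries rich in choroid plexus markers (0.48, adjusted p = 0.0554). It was also lost when fed control 1, 4 or 5 or fasted control 1, 2, 3 or 4 was left out, with log2 values of 0.37, 0.40, 0.38, 0.36, 0.41, 0.40 and 0.39 in that order. In S662D mice the estimate was 0.45 (SE 0.16), from 4.35, 6.64, 7.40, 6.34 and 4.88 CPM fed to 5.73, 7.96, 10.1, 10.1 and 7.05 CPM fasted, with an adjusted p of 0.136. Without fasted S662D mouse 1 it was 0.56 and called (adjusted p = 0.0359).

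**Figure D1:**
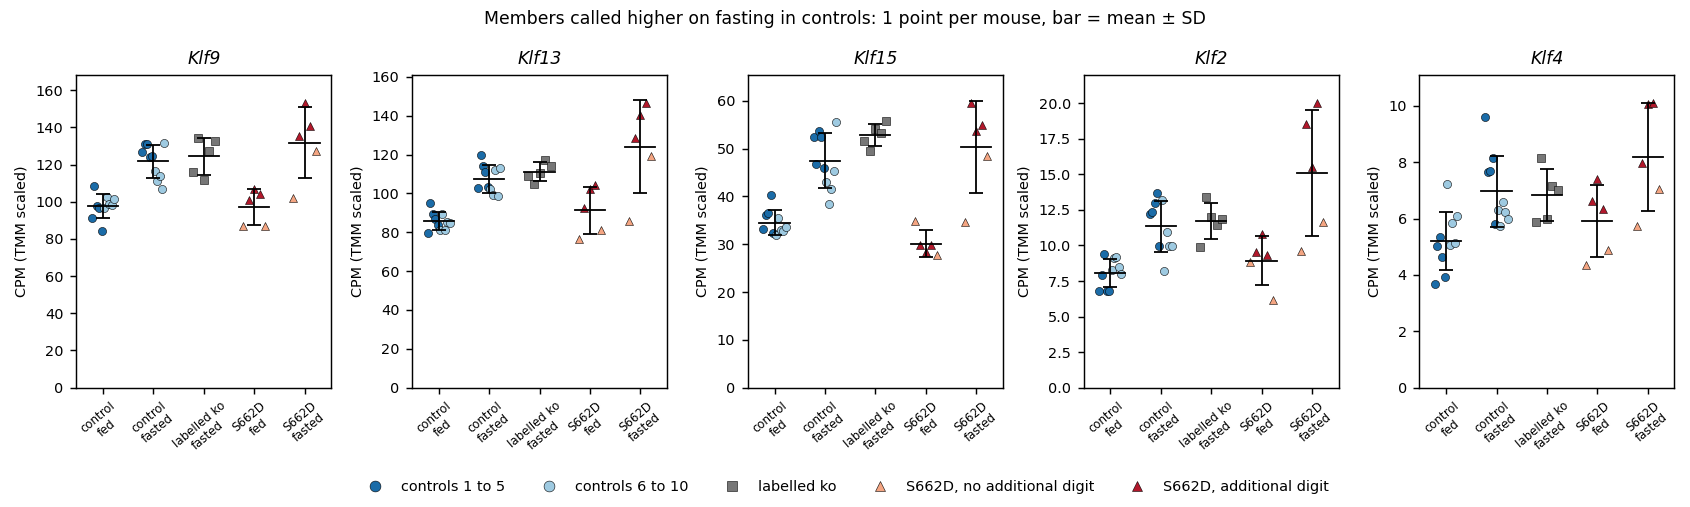
CPM (TMM scaled) of Klf9, Klf13, Klf15, Klf2 and Klf4 by group, with 1 point per mouse, symbols by genotype and library set, and bars for the mean ± SD. Klf13 shows fed controls up to 94.9 CPM and fasted controls from 98.6 CPM, and the lowest fasted S662D point is mouse 1 in all 5 panels.

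The remaining 5 members were not called on fasting in either genotype. Klf6 (chromosome 13, 5861489 to 5870393), an early response gene, was 42.5 ± 2.96 CPM in fed and 41.3 ± 2.79 CPM in fasted controls (log2 -0.04, 95% interval -0.13 to 0.05). Klf16 (chromosome 10, 80567124 to 80577321), a SIN3-binding repressor, was 19.3 ± 1.24 and 18.4 ± 1.99 CPM (log2 -0.07, interval -0.19 to 0.04). The intervals leave out a rise of the size seen in Klf9 for both genes.

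Klf10 (chromosome 15, 38294413 to 38300707) and Klf11 (chromosome 12, 24651371 to 24662774) are TGF-beta-inducible repressors, and Klf10 follows the clock in liver. Klf10 was 3.99 ± 0.502 CPM in fed and 3.93 ± 0.583 CPM in fasted controls (log2 -0.02, interval -0.22 to 0.18). Klf11 was 7.46 ± 1.24 and 7.81 ± 0.853 CPM (log2 0.07, interval -0.09 to 0.22). The fed and fasted libraries of both genes overlapped, with 5 of 10 fasted values above the fed median in each.

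Klf7 (chromosome 1, 64029447 to 64122282), which promotes axon growth, was the member with the most negative control estimate, at -0.15 (interval -0.28 to -0.03, adjusted p = 0.237). It was 21.5 ± 2.31 CPM in fed and 19.3 ± 1.78 CPM in fasted controls, and 9 of 10 fasted libraries lay below the fed median. Klf7 is uncertain, since 39.4% of its exon bases overlap the antisense genes Gm26649 and Gm13748 and counting did not use strand. In S662D mice the estimates were -0.20 for Klf7, -0.20 for Klf16, -0.14 for Klf11, -0.11 for Klf10 and 0.01 for Klf6. All 5 fasted S662D mice lay below the fed median for both Klf7 and Klf16, with adjusted p of 0.272 and 0.209.

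**Figure D2:**
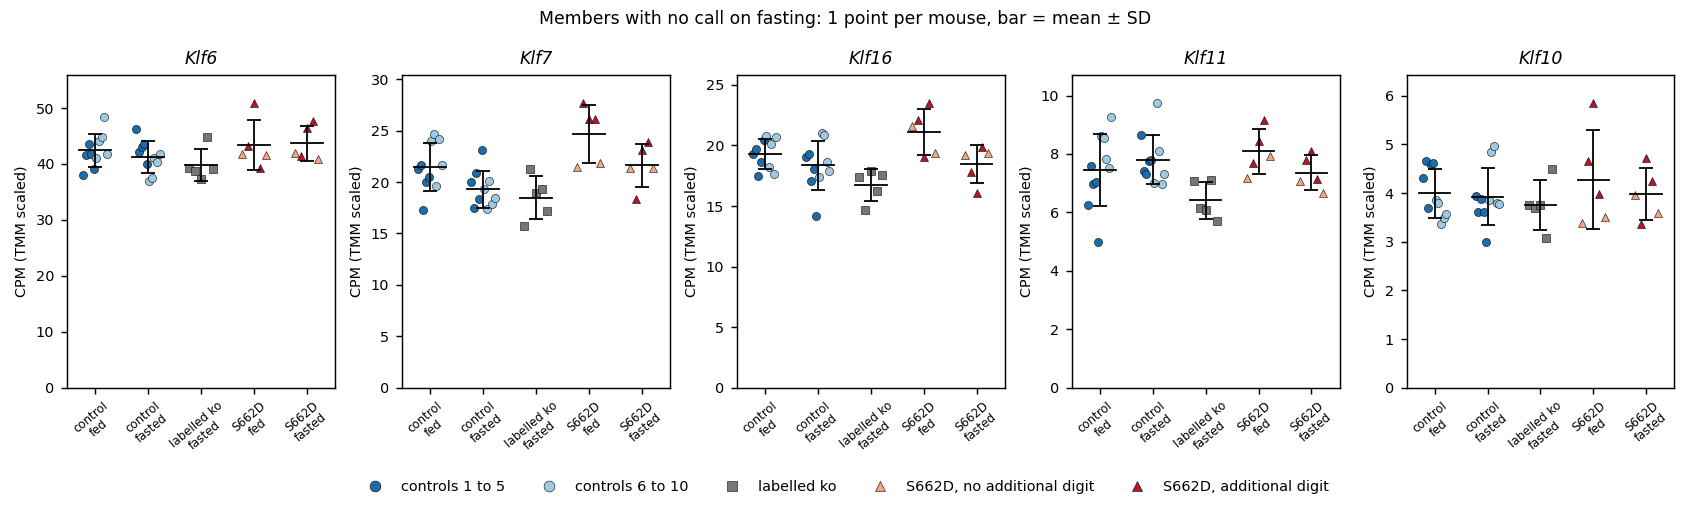
CPM (TMM scaled) of Klf6, Klf7, Klf16, Klf11 and Klf10 by group, with 1 point per mouse and bars for the mean ± SD. Fed and fasted points overlap in every panel, for example Klf6 at 42.5 CPM in fed and 41.3 CPM in fasted controls.

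The response did not pass the test for a difference between the genotypes in any member (0 of 10 by edgeR and by DESeq2, with 0.0% of all genes called and 6.37% at an unadjusted p below 0.05). Klf15 was the only member at an unadjusted p below 0.05. Its S662D response minus its control response was 0.275 on the log2 scale (SE 0.12, unadjusted p = 0.0287, adjusted p = 0.771). The differences were 0.25 for Klf2 (SE 0.19), 0.12 for Klf9 (SE 0.09), 0.11 for Klf13 (SE 0.11) and 0.03 for Klf4 (SE 0.20). Leaving out 1 mouse moved these values by over 1.5 times, to 0.13 (without fasted S662D mouse 4) and 0.38 (without fasted S662D mouse 1) for Klf2, 0.06 (mouse 3) and 0.20 (mouse 1) for Klf9, 0.05 (mouse 4) and 0.22 (mouse 1) for Klf13, and -0.06 (without fed S662D mouse 1) and 0.14 (without fasted S662D mouse 1) for Klf4. With the S662D libraries without the additional digit the Klf15 difference was -0.04, and with those that carry it 0.47 (adjusted p = 0.0775). The 95% interval for Klf2 runs from -0.12 to 0.62, so a sizeable difference is not excluded at this number of mice.

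Split by library number, the rise was uneven. With 9 group means in 1 fit, controls 1 to 5 had all 5 genes called (11.5% of all genes), at 0.49 for Klf15, 0.70 for Klf2, 0.41 for Klf9, 0.34 for Klf13 and 0.78 for Klf4. Controls 6 to 10 had Klf15 (0.42), Klf13 (0.31) and Klf9 (0.22) called higher and Klf7 (-0.29, adjusted p = 0.0239) called lower, against 5.74% of all genes. Klf2 was 0.28 there (adjusted p = 0.128) and Klf4 0.07 (adjusted p = 0.787). The difference between the sets was called for Klf4 alone among the members, at -0.71 (SE 0.18, adjusted p = 0.00616), and 14.4% of all genes were called for it. For Klf15 and Klf13 that difference was -0.07 (SE 0.12) and -0.03 (SE 0.09). When controls 1 to 5 were removed altogether and the spread was estimated from the other libraries, only Klf15 remained called in controls 6 to 10 (0.43, adjusted p = 0.0342), with adjusted p of 0.112 for Klf13, 0.138 for Klf9 and 0.387 for Klf2.

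The S662D libraries with the additional digit (3 fed, 3 fasted) gave 0.93 for Klf15, 0.87 for Klf2, 0.48 for Klf13, 0.46 for Klf9 and 0.47 for Klf4, all called, against 6.38% of all genes. Those without it (2 fed, 2 fasted) gave 0.41, 0.51, 0.38, 0.40 and 0.47 in the same order, with none called and 0.133% of all genes called. Of the fasted S662D libraries without the digit, mouse 1 had the highest sum of 5 red cell markers of all 35 libraries, at 1041 CPM, and 8.27% mitochondrial counts, and their part in its low values was not tested. The difference between these sets was largest for Klf15, at 0.52 (SE 0.16, unadjusted p = 0.00316, adjusted p = 0.361), and 0.0% of genes were called for it.

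**Figure D3:**
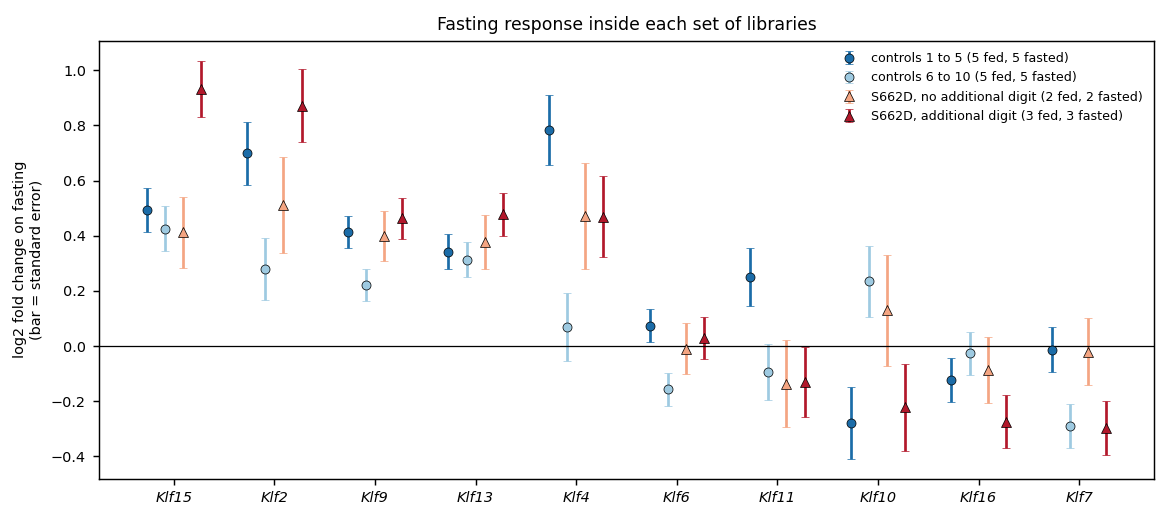
Log2 fold change on fasting (y axis, with standard error) of the 10 members inside each of the 4 sets of libraries. Klf15 and Klf13 sit at like heights in both control sets (0.49 and 0.42, 0.34 and 0.31), while Klf4 is at 0.78 in controls 1 to 5 and 0.07 in controls 6 to 10.

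S662D and control mice were also compared within a feeding state, and no member was called in either (0 of 10 each). In the fed state 4.69% of all genes were called by edgeR. At an unadjusted p below 0.05 there were 2 members (Klf7 and Klf15) and 21.0% of all genes, and DESeq2 called 0 members. Klf15 stood at 30.1 ± 2.82 CPM in fed S662D and 34.5 ± 2.62 CPM in fed controls (log2 -0.20, SE 0.09, adjusted p = 0.190), with 4 of 5 S662D mice below the control median. Klf7 was 0.20 (SE 0.08, adjusted p = 0.105), and it was called without fed S662D mouse 1 (0.25, adjusted p = 0.0405) or mouse 5 (0.24, adjusted p = 0.0487). These 2 mice are the fed S662D libraries without the digit. With the digit libraries alone, Klf7 (0.31) and Klf13 (0.22) were called higher and Klf15 (-0.23) lower, among 3106 genes called in all.

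In the fasted state 5.57% of all genes were called by edgeR. At an unadjusted p below 0.05 there were 3 members (Klf2, Klf13 and Klf7) and 20.8% of all genes, and DESeq2 called 1 member (Klf2). Klf2 was 0.40 (SE 0.13, adjusted p = 0.0548), Klf13 0.20 (SE 0.08, adjusted p = 0.107) and Klf15 0.08 (SE 0.08, adjusted p = 0.643). Klf2 was called when fasted control 4 (0.44) or 6 (0.43) or fasted S662D mouse 5 (0.48) was left out. Without fasted S662D mouse 1, Klf2 (0.53), Klf13 (0.31) and Klf9 (0.19) were all called. With the digit libraries alone, Klf2 (0.67), Klf4 (0.43), Klf13 (0.37), Klf15 (0.24) and Klf9 (0.23) were called higher among 3148 genes, whereas without the digit libraries 0 members were called and Klf2 was -0.08. Of the endothelial markers in the same comparison, 6 of 10 were called higher in fasted S662D mice and none lower, with a summed level of 191.0 to 256.2 CPM against 175.6 to 207.4 CPM in fasted controls. The calls of Cldn5, Flt1, Pecam1, Tie1, Esam and Cdh5 were lost in 3, 4, 6, 12, 13 and 12 of 28 alternatives. Each of these calls was lost without the digit libraries, with the digit as a term in the fit, and with controls 6 to 10 alone. Without the digit libraries the log2 values were 0.44, 0.10, 0.10, 0.19, -0.003 and 0.10 in that order. The part of these markers in the Klf2 value was not tested.

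Fasted mice labelled ko were compared with fasted controls, with 0 of 10 members called by edgeR or DESeq2 and 0.0277% of all genes called by edgeR. Klf9 stood at 124.4 ± 9.98 CPM, Klf13 at 111.1 ± 4.84 and Klf15 at 52.8 ± 2.36 CPM (n = 5). Klf11 was the only member at an unadjusted p below 0.05 (6.07% of all genes were), at -0.28 (SE 0.10, adjusted p = 0.738), with all 5 ko libraries below the median of fasted controls. Klf15 was 0.15 (interval -0.01 to 0.32) and Klf9 0.03 (interval -0.10 to 0.16) relative to fasted controls.

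Of the other 7 Krueppel-like factor genes, Klf3, Klf5, Klf8 and Klf12 passed the filter, and 0 of 4 were called in the 6 comparisons of whole groups with edgeR, with 1 at an unadjusted p below 0.05 in each of the comparisons of fasting in controls, S662D fed, S662D fasted and ko. Klf3, a CtBP-binding repressor, had a control estimate of -0.18 (SE 0.06, adjusted p = 0.122). By library set, Klf3 was called lower on fasting in controls 6 to 10 (-0.28, adjusted p = 0.0248), and the difference between the control sets was called for Klf8 (-0.63, adjusted p = 0.0166) and Klf5 (-0.69, adjusted p = 0.0482). Klf12 was 0.38 in fed S662D mice (SE 0.12, adjusted p = 0.0594) and was called without fed control 7 (0.40) or 9 (0.40) or fed S662D mouse 1 (0.48) or 5 (0.46), and with DESeq2 (0.38). Klf1, Klf14 and Klf17 did not exceed 12 counts in a library.

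Among the 9 Sp factors, 8 were tested and Sp7, known as a bone factor, fell in fasted controls. It went from a median of 1.94 CPM fed (1.38 to 2.25) to 1.20 CPM fasted (0.592 to 1.61), a log2 change of -0.72 (SE 0.16, adjusted p = 0.0038), from 11 to 50 counts per library. With 9 group means in 1 fit, the Sp7 fall was called for controls 6 to 10 (-0.88, adjusted p = 0.0129). Controls 1 to 5 gave -0.56, which did not pass (adjusted p = 0.0896). With either control set removed, the call in the other was lost. Sp9, a factor of inhibitory neurons, was higher in fed S662D mice than in fed controls (log2 0.49, SE 0.11, adjusted p = 0.00929), and the call was lost without fed S662D mouse 4 (0.40, adjusted p = 0.107). The Sp9 call was also lost with controls 6 to 10 alone (0.33, adjusted p = 0.241) and without the choroid plexus libraries (0.45, adjusted p = 0.0657). The same held without the digit libraries (0.38) and with the digit as a term in the fit (0.44). The other 6 were not called on fasting over whole groups. Their log2 estimates in controls were -0.10 for Sp1, 0.00 for Sp2, -0.07 for Sp3, 0.01 for Sp4, -0.41 for Sp5 (SE 0.30) and -0.16 for Sp8. Sp8 was -0.47 in S662D mice (SE 0.16, adjusted p = 0.117), and in the S662D libraries with the digit it was called lower (-0.78, adjusted p = 0.00631).

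**Figure D4:**
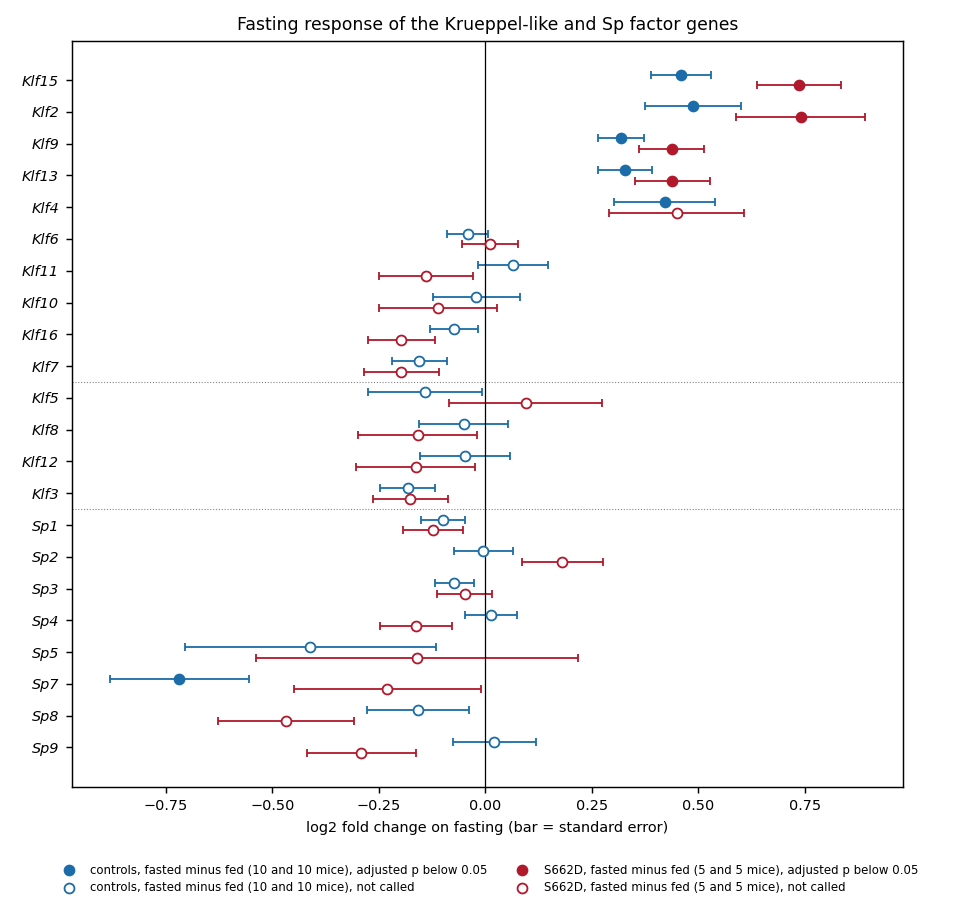
Log2 fold change on fasting (x axis, with standard error) of the 10 members, 4 other Krueppel-like factors and 8 Sp factors, in controls (blue) and S662D mice (red), with filled symbols for adjusted p below 0.05. The 9 filled symbols of the members lie right of 0, between 0.32 and 0.74, and Sp7 in controls lies left of it.

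Of 10 genes for co-repressors and co-activators that bind these factors, Sin3a, the scaffold that the repression domain binds, fell in S662D mice (log2 -0.19, SE 0.05, adjusted p = 0.0451), and none was called in controls. The Sin3a call was lost in 13 of 21 alternatives, including leaving out fed S662D mouse 2 (-0.17), 3 (-0.19) or 4 (-0.17) or fasted S662D mouse 1 (-0.19), 2 (-0.16), 4 (-0.20) or 5 (-0.19).

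Of the 9 tested amino acid and glucose handling genes linked to KLF15 in liver and muscle, 3 rose in both genotypes and none fell. Over all genes, 2.2% were called higher in controls and 1.8% in S662D mice. The list was chosen with earlier results of these data known, so its count does not test KLF15 action. Prodh, which begins proline breakdown, was 0.40 in controls (SE 0.05, adjusted p = 1.92e-06) and 0.40 in S662D mice (SE 0.08, adjusted p = 0.000723). Gpt2, the mitochondrial alanine aminotransferase, was 0.43 (SE 0.07, adjusted p = 3.52e-05) and 0.53 (SE 0.09, adjusted p = 0.000354). Aass, of lysine breakdown, was 0.42 (SE 0.10, adjusted p = 0.00907) and 0.50 (SE 0.14, adjusted p = 0.0445), but its S662D call was lost in 13 of 21 alternatives, 9 of which left out 1 mouse (log2 0.45 to 0.53; only leaving out fasted S662D mouse 1 kept it). The Aass call in controls was lost without the libraries rich in choroid plexus markers (0.40, adjusted p = 0.0686) and in controls 6 to 10 alone (0.23, adjusted p = 0.351), where the Gpt2 call was lost too (0.26, adjusted p = 0.125). In the S662D libraries without the digit, none of Aass (0.44), Gpt2 (0.26) and Prodh (0.30) was called. The median over the 9 genes was 0.11 in controls and 0.12 in S662D mice.

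Of 6 endothelial genes linked to KLF2 and KLF4, Tek, an angiopoietin receptor, fell in controls (log2 -0.42, SE 0.09, adjusted p = 0.0025), and all 6 estimates were below 0. The Tek call was lost in controls 6 to 10 alone (-0.30). Of 10 endothelial markers, 4 fell in controls (Cldn5, Kdr, Tie1 and Emcn, log2 -0.43, -0.49, -0.33 and -0.40) and none rose, while 2 estimates were above 0. In controls 6 to 10 alone all 4 calls were lost, at -0.33 for Cldn5, -0.46 for Kdr, -0.19 for Tie1 and -0.41 for Emcn. Their summed level was 200.1 to 234.8 CPM in fed and 175.6 to 207.4 CPM in fasted controls, with no marker at 0. In S662D mice Kdr fell (-0.59) and Ly6c1 (0.40) and Esam (0.37) rose, with sums of 210.0 to 250.9 CPM fed and 191.0 to 256.2 CPM fasted. Without 1 mouse, Kdr lost its call for fed S662D mouse 3 (-0.51), and Esam for fed mouse 4 (0.35) and fasted mice 2 (0.30) and 4 (0.29). In the S662D libraries without the digit, Kdr (-0.48), Ly6c1 (0.23) and Esam (0.10) were not called. Kdr (-0.44, adjusted p = 0.223) and Ly6c1 (0.35, adjusted p = 0.123) were lost without the choroid plexus libraries. With only the S662D libraries in the fit, Kdr (adjusted p = 0.0846) and Esam (adjusted p = 0.153) were lost.

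Microglia also express several of these factors. Of 8 microglial markers, Cx3cr1 (-0.41) and P2ry12 (-0.34) fell in controls and Cx3cr1 in S662D mice (-0.43), with sums of 207.0 to 238.6 CPM in fed and 177.0 to 232.4 CPM in fasted controls. The Cx3cr1 call in S662D mice was lost in the libraries without the digit (-0.35) and without the choroid plexus libraries (-0.40). Of 8 astrocyte markers, Gjb6 (0.49), Aldh1l1 (0.20) and Agt (0.25) rose and Aqp4 (-0.33) fell in controls, and the sums were 2466 to 2745 CPM fed and 2450 to 2886 CPM fasted. In S662D mice Gjb6 (0.57) and Aldh1l1 (0.19) rose and none fell, with sums of 2526 to 2890 CPM fed and 2604 to 3058 CPM fasted. The Aldh1l1 call there was lost in 12 of 21 alternatives, and the Agt call in controls was lost in controls 6 to 10 alone (0.14). The Gjb6 call in S662D mice was lost in the libraries without the digit (0.38). In controls, the call of Aqp4 was lost in controls 6 to 10 alone (-0.25) and that of Aldh1l1 in controls 1 to 5 alone (0.15). Of 10 oligodendrocyte markers, Mobp (0.15) and Pdgfra (0.19) rose and Olig2 (-0.22) fell in controls, and Mobp rose in S662D mice (0.40). The Mobp and Pdgfra calls in controls were each lost in 12 of 30 alternatives. That of Olig2 was lost in controls 1 to 5 alone (-0.23), in controls 6 to 10 alone (-0.21) and without the choroid plexus libraries (-0.19). In the S662D libraries without the digit, Mobp (0.25) was not called. The sums of oligodendrocyte markers were 7786 to 10390 CPM in fed and 8564 to 9710 CPM in fasted controls, and 7873 to 9309 CPM in fed and 9338 to 9938 CPM in fasted S662D mice. In fasted S662D mice against fasted controls, 3 of these 10 markers (Olig1, Cspg4 and Olig2) were called higher and none lower, against 5.57% of all genes called. All 3 calls were lost without the digit libraries, at 0.06, 0.05 and 0.04. They were also lost with the digit as a term in the fit and with controls 6 to 10 alone. Of 10 hypothalamic genes, the appetite peptides Npy (0.39, adjusted p = 0.00263) and Agrp (0.61, adjusted p = 0.0196) rose in fasted controls and none was called in S662D mice, where Npy was 0.37 and Agrp 0.13. Both control calls were lost in controls 6 to 10 alone (0.26 and 0.27), and that of Agrp also without fasted control 3 (0.54). No neuronal marker was called on fasting (0 of 8 in controls and 0 of 8 in S662D mice). The part of cell makeup in the Krueppel-like factor values was not tested.

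Across the 35 libraries, deviations from the group means were compared for all 45 pairs of members. Klf9 and Klf13 were most alike (Pearson r = 0.802, Spearman rho = 0.738, permutation p = 1e-05 for each, the smallest that 100000 permutations can give, adjusted p = 0.00015 over 45 pairs). Without the 2 libraries farthest from the median of Klf9, r was 0.752. Klf4 and Klf9 gave r = 0.720 and rho = 0.674, and Klf2 and Klf4 gave r = 0.712 and rho = 0.741, with the same permutation p, and 0.789 and 0.665 without 2 libraries. With deviations taken from the mean of each group and library set, these 3 values of r were 0.667, 0.473 and 0.426, lower than without the sets. The permutation p-values belong to the values without the sets, and none was computed within them.

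The genes most like Klf9 in these deviations, of 15458 compared, were Kndc1 (r = 0.861), Acvr1c (0.843) and Fam168a (0.838), and those most like Klf2 were Atg13 (0.801), Adrb1 (0.789) and Foxk2 (0.785), each over 35 libraries. They were chosen for this value and share libraries, depth and library sets with it. Within library sets the values were 0.711, 0.725 and 0.683 for Klf9 and 0.698, 0.620 and 0.527 for Klf2.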

How the data were processed

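RNA-seq counts of 35 hypothalamus libraries were used. The authors deposited raw counts per gene. Per the file headers, featureCounts 2.0.1 assigned read pairs to GENCODE vM12 (mm10) exons by gene name, unstranded, and multi-mapping pairs counted at each alignment. Alignment used STAR 2.7.10b, per the submitters' processing notes. Genes with near-identical copies may be inflated, and counts of genes with antisense partners are uncertain.

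Genes were filtered with edgeR's filterByExpr (minimum count 10), scaled with TMM and fitted in 1 model with a mean per group (edgeR 4.0.16, R 4.3.3, glmQLFit robust, glmQLFTest). Benjamini-Hochberg adjustment ran over 18063 genes in each of 6 comparisons, and called means an adjusted p below 0.05. Standard errors come from the F statistic. Intervals named 95% reach 1.96 standard errors to either side, a normal approximation that is somewhat narrower than the F test would give. CPM are TMM-scaled; per kb divides by exon length. The fit was also run on simulated counts, drawn without library sets, so that run says nothing about differences between the sets. Library pairs within a group differed by a chi-square of at least 2.44 per degree of freedom, so all counted as separate replicates.

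Named genes were all members, every tested relative, of every other list at most 5 genes called in each fasting comparison, and the 3 genes most like Klf9 and Klf2. Endothelial and oligodendrocyte markers called in fasted S662D mice against fasted controls were named too. Members and lists were chosen with earlier results of these data known. Alternatives were other scalings, filters, library sets, a replicate block, DESeq2 1.42.0 and leaving out each mouse; 1 was added after seeing the data (libraries with at most 200 CPM of choroid plexus markers). Library sets were compared in a further fit with 9 group means, also chosen after seeing the data.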

Additional observations from a re-analysis of the deposited data

Results flagged for a closer look

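Klf6 in ko mouse 4 was 44.75 CPM, while the other 4 ko mice lay between 37.3 and 39.3 CPM. The gap was 0.739 of the group's range, above the limit of 0.71 for 5 samples. This was the only 1 of 50 sets of a member and a group that stood out, and chance alone flags about 1 in 20. It touches no called result.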

How the results depend on the processing

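The count of members called on fasting in controls was 4 or 5 in all alternatives run except controls 6 to 10 alone, where it was 1 (Klf15), and 4 to 5 when 1 mouse was left out. In S662D mice it was 3 to 5, and 4 to 5 without 1 mouse, except 0 in the libraries without the additional digit and 2 with only the groups compared in the fit. The S662D comparison in fed mice went from 0 to 1 (controls 1 to 5), 3 (libraries with the digit) and 3 (replicate block), and to 0 to 1 without 1 mouse. In fasted mice it went to 1 (mean of at least 1 CPM), 5 (libraries with the digit) and 1 (DESeq2), and to 0 to 3 without 1 mouse. The difference of responses and the ko comparison stayed at 0 throughout. No member called on fasting over whole groups changed sign. Between genotypes, some members called only in an alternative did. In fasted mice these were Klf2 (0.67 with the digit libraries, -0.08 without them), Klf4, Klf9, Klf13 and Klf15. In fed mice Klf4 (0.39 with the block, -0.18 without the digit libraries) and Klf13 changed sign, whereas Klf7 and Klf15 did not. The causes of these shifts were not tested; fewer libraries also mean fewer degrees of freedom.

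Counts over all genes moved more. Fasting in controls gave 701 genes, 1315 with controls 1 to 5 and 304 with controls 6 to 10. Fasting in S662D mice gave 476, 7 without the digit, 226 without the choroid plexus libraries, 279 with only its groups and 311 without fasted S662D mouse 2. The difference gave 0, 486 with controls 1 to 5 and 9 with the digit. S662D against control, fed, gave 847, then 1741 and 33 with either control set, 16 and 3106 without and with the digit, 23 with the digit as a term, 365 without the choroid plexus libraries, 2333 with the replicate block, 1369 with DESeq2 and 66 to 1667 without 1 mouse. Fasted, it gave 1007, then 1680 and 48, 21 and 3148, 20 with the digit as a term, 291 with only its groups and 154 to 1802. The ko comparison gave 5, then 2 and 99, 1, 3 with only its groups and 8 with DESeq2. With library size alone as scaling, the share of called genes that were higher was 44.4% instead of 68.5% for fasting in S662D mice, and 25.3% instead of 60.1% for fasted S662D mice against controls; the called members kept their direction.

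Replicate numbers were not taken to pair the samples, since for none of the 5 pairs of groups did every same-numbered pair correlate above 0.1. Deviations of fed and fasted controls correlated at -0.191 to 0.059, those of fed and fasted S662D mice at -0.109 to 0.160, and those of fed controls and fed S662D mice at -0.052 to 0.236, with 3 of 5 pairs above 0.1. With the replicate block, fasting in controls gave 4 members, without Klf4 (0.42, adjusted p = 0.0725), and fasting in S662D mice gave 4, with Klf4 (0.46) called and Klf15 (0.72, adjusted p = 0.0919) not. For fed S662D against fed control mice it called Klf4 (0.39, adjusted p = 0.0304), Klf7 (0.30, adjusted p = 0.0233) and Klf15 (-0.24, adjusted p = 0.0283), and on fasting in controls it lost Aass (0.41, adjusted p = 0.0922). Each of fed controls 1 to 5 was compared with the 5 fed S662D mice. Of these controls, 3 correlated best with the S662D mouse of their own number, a hint from the data and not from the design. Klf13 on fasting in S662D mice was 0.40 (adjusted p = 0.101) without the choroid plexus libraries.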
